A study of Homo sapiens with 8 samples.

Results

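Readthrough genes are table entries named for a pair of neighbouring genes, such as HNRNPUL2-BSCL2, and were taken here as every entry whose symbol reads X-Y where X and Y each also have an entry of their own. Of 27475 human genes in the table, 99 had such a name, and the 88 of them that were above 0 TPM in at least 1 of the 8 libraries are described. TPM, a transcript's share of all transcripts on a fixed scale, corrects for gene length and gives every library the same sum, so levels of different genes can be set side by side. The entries were thus chosen by their names and selected on 1 measured value, a TPM above 0. Just inside it were MROH7-TTC4, at 0.03 TPM in 1 library, and EPPIN-WFDC6, at 0.04 TPM in 1 library, and 11 entries, among them INS-IGF2, LY75-CD302, SAA2-SAA4 and HOXA10-HOXA9, were listed at 0 in all 8.

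The libraries came from UM-UC-3 and RT112, established human bladder cancer cell lines, and RNA-seq was done to ask what loss of PAI-1 changes in each line. Both lines were transfected for 72 h with 100 pmol siRNA, either the 3 pooled sequences that target PAI-1, called siPAI-1 here, or scrambled ones, called Scr. Each of the 4 groups had 2 libraries, numbered replicate 1 and replicate 2, and values are given in that order. The study describes independent siRNA experiments, more of them than the 2 libraries per group used here, and the labels do not tie these libraries to separate cultures, so p-values measure the spread between these libraries, which may be technical. The depth, estimated from the step size of low FPKM values (reads per kilobase and per total reads), was 29.2 to 34.1 M reads per library, and whole multiples of it could not be told apart. RT112 carried the epithelial and urothelial markers (EPCAM 327 to 344 TPM, UPK1B 580 to 644 TPM), while in UM-UC-3 EPCAM was at most 0.46 TPM, UPK1B at most 1.05 TPM and CDH1 at most 0.48 TPM, with VIM at 2852 TPM or more. Not every marker split this way. The mesenchymal marker CDH2 was at 9.22 to 12.6 TPM in UM-UC-3 and at 7.65 to 20.6 TPM in RT112. The keratins KRT8 and KRT18 were higher in RT112 but still at 31.2 to 42.1 and 167 to 186 TPM in UM-UC-3. The leukocyte marker PTPRC was at most 0.03 TPM in all libraries.

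As background, a gene normally ends where its transcript is cut and polyadenylated, and the downstream neighbour starts from a promoter of its own. In a readthrough transcript the polymerase runs past the end of the upstream gene X into the downstream gene Y on the same strand, and splicing then usually joins an exon of X directly to an exon of Y. Some of these fused messages code for a protein with parts of both genes, and others have a premature stop codon and are marked as targets of nonsense-mediated decay. Apart from the joint itself, most of such a transcript repeats the sequence of X and Y, so a short read often cannot tell them apart, and every level below depends on how the authors' program divided shared reads.

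Of the 88 entries, 84 were found by identifier in GENCODE 44 and 80 of these are tagged there as readthrough genes. The 4 untagged ones were NME1-NME2, C7orf55-LUC7L2, PALM2-AKAP2 and SLX1A-SULT1A3. The identifier listed as NME1-NME2 now belongs to NME2, and the one listed as NME2 now belongs to NME1-NME2. In the same way C7orf55-LUC7L2 is now LUC7L2, and the entry listed as LUC7L2 is now the readthrough gene. Both pairs are kept here under their listed names, and which member of each is the readthrough gene is uncertain. SLX1A-SULT1A3 is a long noncoding gene made of readthrough transcripts. In 83 of 83 pairs that could be placed, X and Y lay on the same strand with X upstream. Among the 70 tagged pairs that do not overlap, Y began 139 to 102778 bases after the end of X, with a median of 6402 bases. Of the 80 tagged genes, 51 have at least 1 protein-coding transcript and the other 29 have none but do have a transcript marked for nonsense-mediated decay.

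The joint between X and Y is what sets a readthrough transcript apart, and the joints of 9 entries on which the results turn are printed with the last 15 bases of the X exon in lower case and the first 15 bases of the Y exon in capitals, 5′ to 3′ on the transcript. They were read from GENCODE 44 transcripts. None of the 9 sequences was found in any transcript of X, of Y or of another gene in that annotation, and the same held against X and Y for all 76 joints that could be read this way.
HNRNPUL2-BSCL2: caatacaatcgggatGGACCCTCCATTTTC
ARL2-SNX15: ctgctggtggaggagTGACCTGGGTTTACG
MSANTD3-TMEFF1: acgcctcagcccaagAATTAAATGTGAGGG
PRR5-ARHGAP8: attcctgcatcctggAGCTGCAGAGAGACA
COMMD3-BMI1: atggaacaattacagGATTTTTTATCAAGC
SYNJ2BP-COX16: agagtgcagcacaggTTGCTGATTGTTGGA
ATP6V1G2-DDX39B: agcaagcagcaggcgACAGGCATTTTCCAA
FPGT-TNNI3K: tattaattcactctgATGAATGGAAGAAAA
POC1B-GALNT4: acggcaagcaacttgGAGCCGGCCGTGCCA

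In GRCh38, the joint of HNRNPUL2-BSCL2 runs on the minus strand of chromosome 11 from exon 13, ending at base 62715500, to an exon that starts at base 62707324. ARL2-SNX15 joins exon 3 of its transcript, ending at base 65018733 of chromosome 11, to an exon starting at base 65027318 on the plus strand. MSANTD3-TMEFF1 uses exon 1 alone from its upstream part and joins it across 56408 bases of chromosome 9 to an exon starting at base 100498765. PRR5-ARHGAP8 joins base 44735162 to base 44786457 on the plus strand of chromosome 22, and COMMD3-BMI1 joins base 22319018 to base 22326431 on the plus strand of chromosome 10. On the minus strands, SYNJ2BP-COX16 joins base 70375676 to base 70342729 of chromosome 14, ATP6V1G2-DDX39B joins base 31546109 to base 31542148 of chromosome 6, and POC1B-GALNT4 joins base 89525120 to base 89524440 of chromosome 12. FPGT-TNNI3K joins base 74201410 to base 74236102 on the plus strand of chromosome 1.

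How much of each transcript is its own was counted in windows of 75 bases, the length of the reads. Over the 80 tagged genes, a median of 14.3% of such windows was found in neither X nor Y, from 1.52% to 66.4%, and 12 genes had no more than 75 own windows, that is, little beyond the joint. HNRNPUL2-BSCL2 had 74 own windows, 1.88% of its total, MSANTD3-TMEFF1 had 69 and URGCP-MRPS24 had 70. FPGT-TNNI3K stood at the other end with 66.4%, and PRR5-ARHGAP8 had 29.0%. If reads fell evenly along each transcript, the joint itself would have been crossed by a median of 3.43 reads per library over the 88 entries, by 10 or more for 27 entries and by less than 1 for 25 entries. These read numbers rest on the estimated depth and cover no counting error.

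Mean TPM over the 8 libraries was at least 1 for 59 entries, at least 10 for 21 and at least 50 for 6, and below 0.1 for 12. The median of the means was 2.16 TPM, against 5.27 TPM over all genes above 0, and 53 entries were above 0 in all 8 libraries while 7 were above 0 in only 1. Partner genes were higher, with a median of 14.97 TPM for X and 7.93 TPM for Y. Tagged genes with a coding transcript had a median of 2.69 TPM and those without one a median of 1.199 TPM.

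NME1-NME2, the entry whose identifier is now that of NME2, a nucleoside diphosphate kinase, was highest. It had 533 and 611 TPM in UM-UC-3 with Scr, 582 and 589 TPM with siPAI-1, 703 and 677 TPM in RT112 with Scr, then 729 and 668 TPM with siPAI-1. C7orf55-LUC7L2, whose identifier is now that of the splicing factor gene LUC7L2, lay between 65.7 and 96.7 TPM, and the libraries of the 2 lines overlapped.

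HNRNPUL2-BSCL2 was the highest entry tagged as readthrough. HNRNPUL2 encodes an RNA-binding protein of the nucleus, and BSCL2 encodes seipin, which shapes lipid droplets at the endoplasmic reticulum. The entry was at 88.6 and 94.7 TPM in UM-UC-3 with Scr, at 92.3 and 97.4 TPM with siPAI-1, at 109 and 116 TPM in RT112 with Scr, and at 111 and 113 TPM with siPAI-1. All RT112 libraries were above all UM-UC-3 libraries, and in all 8 the readthrough entry was above HNRNPUL2 (51.3 to 65.3 TPM) and above BSCL2 (4.83 to 16.02 TPM). Its single annotated transcript is marked for nonsense-mediated decay.

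Entries with a ribosomal or translation gene numbered 7 and had a median of 15.8 TPM. RPS10-NUDT3 joins a protein of the small ribosomal subunit to a phosphohydrolase of inositol phosphates. It lay between 60.0 and 72.9 TPM in UM-UC-3 and between 44.9 and 50.4 TPM in RT112, without overlap, beside RPS10 at a mean of 1367 TPM and NUDT3 at a mean of 24.3 TPM. RPL17-C18orf32, from a protein of the large subunit, lay between 37.4 and 45.6 TPM in UM-UC-3 and between 54.2 and 58.7 TPM in RT112. RPL36A-HNRNPH2 lay between 31.6 and 48.0 TPM in UM-UC-3 and between 14.8 and 25.2 TPM in RT112, so these 3 entries did not share a direction between the lines.

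Of the other highly expressed entries, HSPE1-MOB4, which starts in the gene of the mitochondrial chaperonin HSP10, ranged from 44.97 to 64.4 TPM. SYNJ2BP-COX16, which joins an outer mitochondrial membrane protein to an assembly factor of cytochrome c oxidase, ranged from 40.5 to 60.0 TPM. NEDD8-MDP1, which starts in the gene of the ubiquitin-like modifier NEDD8, ranged from 28.3 to 56.3 TPM, and its 2 UM-UC-3 Scr libraries differed from each other as 41.6 and 56.3 TPM. COMMD3-BMI1, which ends in the gene of the polycomb protein BMI1, was at 48.7 and 54.4 TPM in UM-UC-3 with Scr, at 50.4 and 61.0 TPM with siPAI-1, at 25.8 and 17.9 TPM in RT112 with Scr, and at 24.9 and 25.3 TPM with siPAI-1.

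The groups were formed from the starts of gene names, and an entry could be in more than 1. Genes of the same kind under other names are not in them. RNA-processing genes took part in 7 entries with a median of 18.4 TPM, the highest of the groups, and entries with an open reading frame name numbered 6 with a median of 13.1 TPM. Genes with the mitochondrial name starts used, which leave out HSPE1, were in 3 entries with a median of 10.2 TPM. Ubiquitin and membrane traffic genes were in 6 with a median of 2.47 TPM, and zinc fingers in 3 with a median of 1.39 TPM. The 4 entries with the name starts used for immune ligands or receptors had a median of 0.0419 TPM. Only RTEL1-TNFRSF6B among them, which ends in a decoy receptor gene, reached a mean of 1 TPM. CKLF-CMTM1, from a chemokine-like factor gene, is outside the group by its name and had means of 7.24 TPM in RT112 and 7.01 TPM in UM-UC-3.

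**Figure D1:**
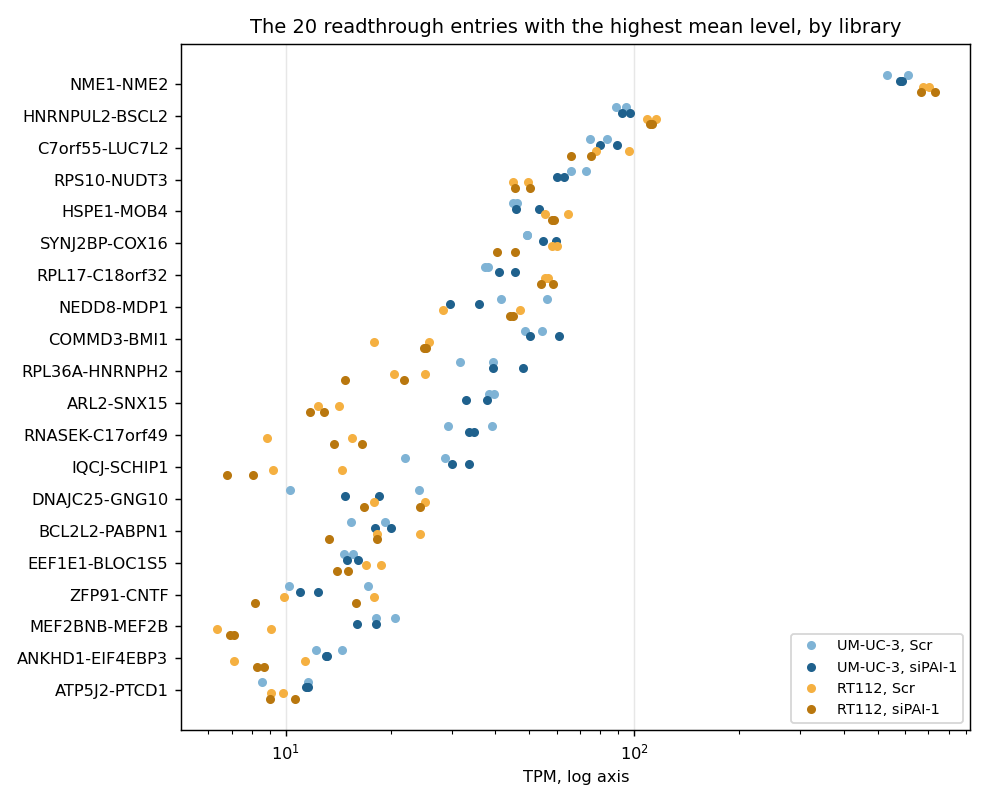
Level in TPM on a log axis of the 20 readthrough entries with the highest mean, where each point is 1 of the 8 libraries coloured by cell line and siRNA. NME1-NME2 stands apart between 533 and 729 TPM, and the UM-UC-3 points of ARL2-SNX15, COMMD3-BMI1 and IQCJ-SCHIP1 lie to the right of all RT112 points.

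Within a pair, the readthrough entry was most often a small part. Its share was computed as its TPM in percent of the sum of X-Y, X and Y, over the 82 pairs where this sum was at least 1 TPM in every library. The median share was 4.90%, with quartiles of 0.927% and 14.2%, and 21 pairs were under 1%, 28 were at 10% or more, and 4 were at 50% or more. With NME1-NME2 and C7orf55-LUC7L2 under the names their identifiers have in GENCODE 44, 2 pairs were at 50% or more, and the median share was 4.9%. The readthrough entry was below X and below Y in all 8 libraries in 26 of the 88 pairs, above Y but not X in 16, above X but not Y in 2, and above both in 3.

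By the listed names, the 3 entries above both partners in every library were NME1-NME2, HNRNPUL2-BSCL2 and IQCJ-SCHIP1, and with the GENCODE 44 names NME1-NME2 left this group and 2 remained. The identifier of IQCJ-SCHIP1 is not in GENCODE 44, so its joint and own windows were not read. Whether its transcripts span both genes was not tested. IQCJ-SCHIP1 took a median of 94.9% of its pair. It was at 28.7 and 21.9 TPM in UM-UC-3 with Scr, 33.5 and 30 TPM with siPAI-1, 14.5 and 9.20 TPM in RT112 with Scr, then 6.80 and 8.03 TPM with siPAI-1, while IQCJ stayed at 0.04 TPM or less and SCHIP1 at 2.32 TPM or less. HNRNPUL2-BSCL2 took 59.8% (55.1% to 64.9% over the libraries), C7orf55-LUC7L2 54.8%, NME1-NME2 52.3% and MEF2BNB-MEF2B 48.0%. Under the GENCODE 44 names, the share was 43.1% for C7orf55-LUC7L2 (33.1% to 50.3%) and 28.5% for NME1-NME2 (25.5% to 32.7%). In MEF2BNB-MEF2B the readthrough entry and MEF2BNB, now called BORCS8 and part of a complex that moves lysosomes, were close to each other, at means of 12.8 and 14.2 TPM, and the transcription factor gene MEF2B was at a mean of 0.583 TPM.

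In 6 pairs Y was listed at 0 in all 8 libraries although X-Y was not. Among them ANKHD1-EIF4EBP3, which ends in a gene of the 4E-binding proteins that hold back translation, had a mean of 11.0 TPM, ERCC6-PGBD3, which joins a DNA repair gene to a domesticated transposase, had 3.43 TPM, and RBAK-RBAKDN had 2.46 TPM. TMEFF1, a transmembrane protein gene, was similar: it was at 0 in 7 libraries and at 0.31 TPM in the other, while MSANTD3-TMEFF1 was above 0 in all 8.

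**Figure D2:**
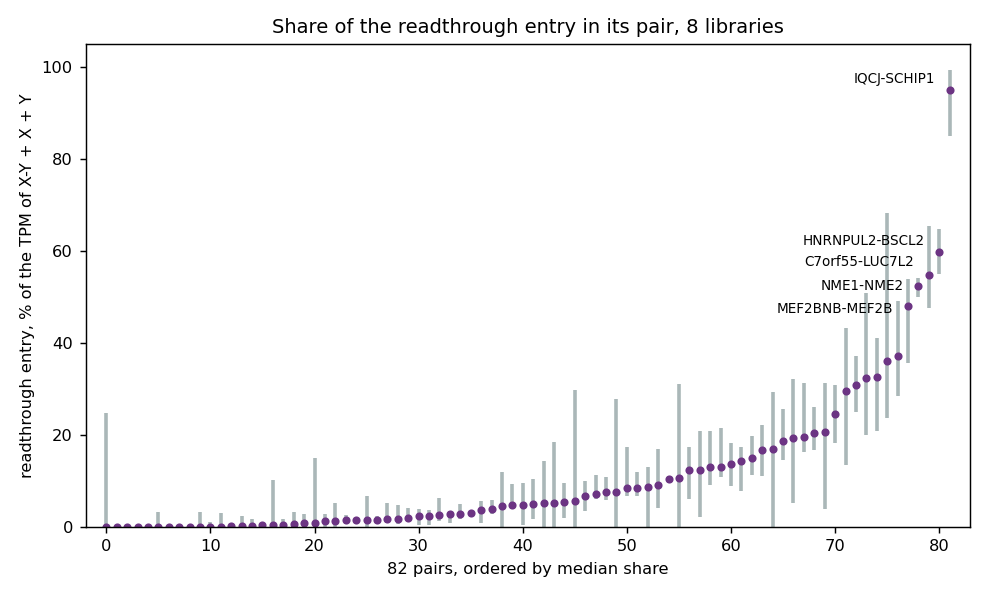
Share of the readthrough entry in the summed TPM of X-Y, X and Y, in percent, for 82 pairs ordered from low to high. Points are medians over 8 libraries and lines run from the lowest to the highest library; most pairs lie under 14.2%, and the 5 named ones, by their listed names, lie between 48.0% and 94.9%.

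The 2 libraries of a group lay further apart, at the median, for readthrough entries than for all genes of similar level. The gap between the 2 libraries, in percent of their sum and averaged over the groups, had a median of 23.5% over the 38 entries with a mean of 1 to 10 TPM, against 13.4% over the 4195 genes in that range. Between 10 and 100 TPM it was 7.82% over 19 entries against 5.01% over 6842 genes. In finer ranges of level, 59 of 86 entries lay above the median of all genes of their range, and 38 above its upper quartile. CORO7-PAM16 was an example, at 3.75 and 0.03 TPM in UM-UC-3 with Scr, 0.93 and 3.52 TPM with siPAI-1, 6.14 and 1.04 TPM in RT112 with Scr, then 4.89 and 1.21 TPM with siPAI-1. The 12 tagged genes with at most 75 own windows had a median gap of 65.1% and a median level of 0.901 TPM, and the other 68 had a median gap of 28.8% and a median level of 2.02 TPM, so own sequence and level moved together and their separate parts were not tested.

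**Figure D3:**
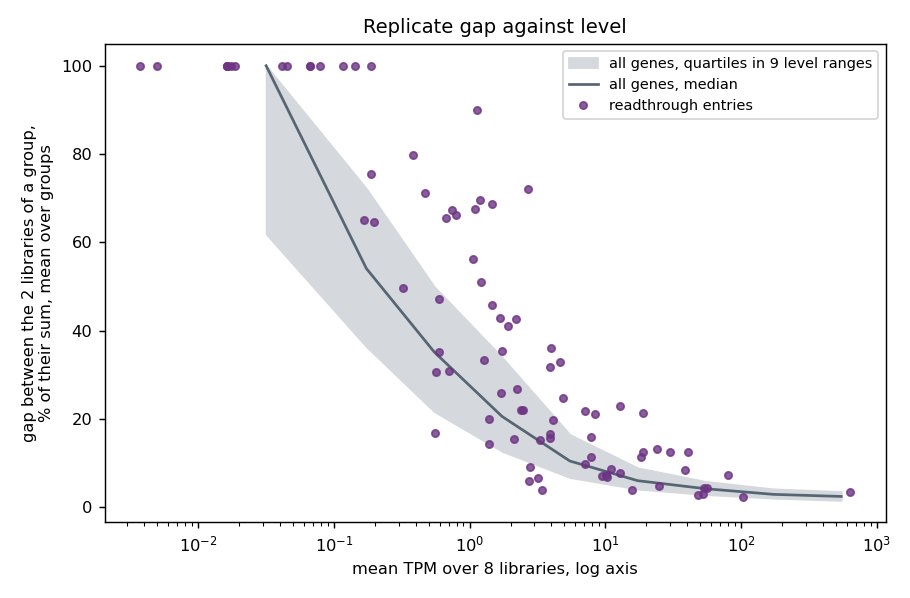
Gap between the 2 libraries of a group in percent of their sum, averaged over the groups (linear axis), against mean TPM (log axis), where points are readthrough entries and the line and band are the median and quartiles of all genes in 9 ranges of level. More points lie above the line than below it, 59 of the 86 that fall in a range.

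RT112 was then compared with UM-UC-3, which asks whether the lines differ in their readthrough entries and whether X and Y differ with them. The test was limma on log2(TPM + 0.1) with siRNA as covariate, adjusted by Benjamini-Hochberg over all 20274 genes, and on this scale the change of low genes is understated. Of the 88 entries, 31 passed an adjusted p of 0.05, 9 higher in RT112 and 22 higher in UM-UC-3. Over all genes 60.6% passed, 29.7% higher and 30.9% lower in RT112, and the 35.2% of readthrough entries was thus below the background. At a mean of 1 TPM or more, 45.8% of the entries and 77.3% of all genes passed. The median size of the difference in that range was 0.72 on the log2 scale for the 59 entries and 0.69 for all genes, and the median standard error was 0.26 against 0.11. Without overlap of the 4 libraries of each line, 10 entries were higher in RT112 and 17 higher in UM-UC-3, against 27.2% and 28.8% of all genes.

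PRR5-ARHGAP8 was above 0 in RT112 alone. PRR5 encodes a subunit of the kinase complex mTORC2, and ARHGAP8 encodes a GTPase-activating protein. The readthrough entry was listed at 0 in all 4 UM-UC-3 libraries and was at 8.16 and 7.15 TPM in RT112 under Scr and at 10.1 and 5.88 TPM under siPAI-1. It was above 0 only through RT112, as ARHGAP19-SLIT1 was only through UM-UC-3, so the level filter fixed the direction of these 2 of the 31. Their p-values are not given, but the counts of entries that passed include them. ARHGAP8 showed the same pattern, with 0.1 to 0.29 TPM in UM-UC-3 and 10.8 to 15.8 TPM in RT112 (adjusted p = 4.08e-07), and PRR5 was higher in RT112 by less, with a mean of 17.5 TPM against 6.15 TPM (log2 difference 1.5 ± 0.14 SE, adjusted p = 1.73e-05).

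ARL2-SNX15 was the entry with the smallest p among those higher in UM-UC-3. ARL2 encodes a small GTPase needed for tubulin folding, and SNX15 a sorting nexin of endosomes. It was at 39.5 and 38.4 TPM in UM-UC-3 with Scr, 37.9 and 33.0 TPM with siPAI-1, 14.2 and 12.4 TPM in RT112 with Scr, then 12.8 and 11.7 TPM with siPAI-1, which is a log2 difference of -1.53 ± 0.08 SE (adjusted p = 4.02e-07 by limma). ARL2 differed by -0.71 ± 0.07 and SNX15 by -0.95 ± 0.23 on the same scale. The share of ARL2-SNX15 in its pair was 18.8% to 22.1% in UM-UC-3 and 11.1% to 14.6% in RT112, without overlap.

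MSANTD3-TMEFF1 was at 6.29 and 5.31 TPM in UM-UC-3 under Scr and 6.79 and 5.54 TPM under siPAI-1, and at 0.35 to 0.44 TPM in RT112 (log2 difference -3.57 ± 0.19 SE, adjusted p = 5.5e-07 by limma). Its upstream partner MSANTD3, a gene with a Myb-like domain, went in the same direction from a mean of 260 TPM to one of 60.7 TPM (log2 difference -2.10 ± 0.09). COMMD3-BMI1 (log2 difference -1.20 ± 0.12 SE, adjusted p = 2.86e-05 by limma) moved with BMI1 (-1.26 ± 0.12) and not with COMMD3, where the difference was -0.12 ± 0.16 and did not pass the test. RNASEK-C17orf49 (-1.34 ± 0.18) likewise lay closer to C17orf49 (-1.63 ± 0.05) than to RNASEK (-0.25 ± 0.05). MEF2BNB-MEF2B (-1.31 ± 0.12) lay between MEF2BNB (-0.93 ± 0.12) and MEF2B (-2.82 ± 0.62).

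Fewer entries were higher in RT112. SLX1A-SULT1A3 was at 4.81 to 5.85 TPM in UM-UC-3 and at 10.5 to 19.5 TPM in RT112 (log2 difference 1.40 ± 0.13 SE, adjusted p = 2.38e-05 by limma), with SLX1A, a subunit of a structure-specific nuclease, and SULT1A3, a sulfotransferase of catecholamines, both higher there as well. This locus has a near-identical copy, and the joint of SLX1A-SULT1A3 was also found in 1 other gene, so the division of its reads is uncertain. ERCC6-PGBD3 was at 2.01 to 2.56 TPM in UM-UC-3 and at 4.35 to 4.94 TPM in RT112 (log2 difference 1.00 ± 0.14). RPL17-C18orf32 and HNRNPUL2-BSCL2 differed by 0.48 ± 0.06 and 0.26 ± 0.04. For the latter, HNRNPUL2 differed by -0.13 ± 0.07, which did not pass the test, and BSCL2 by 0.99 ± 0.18, which did.

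**Figure D4:**
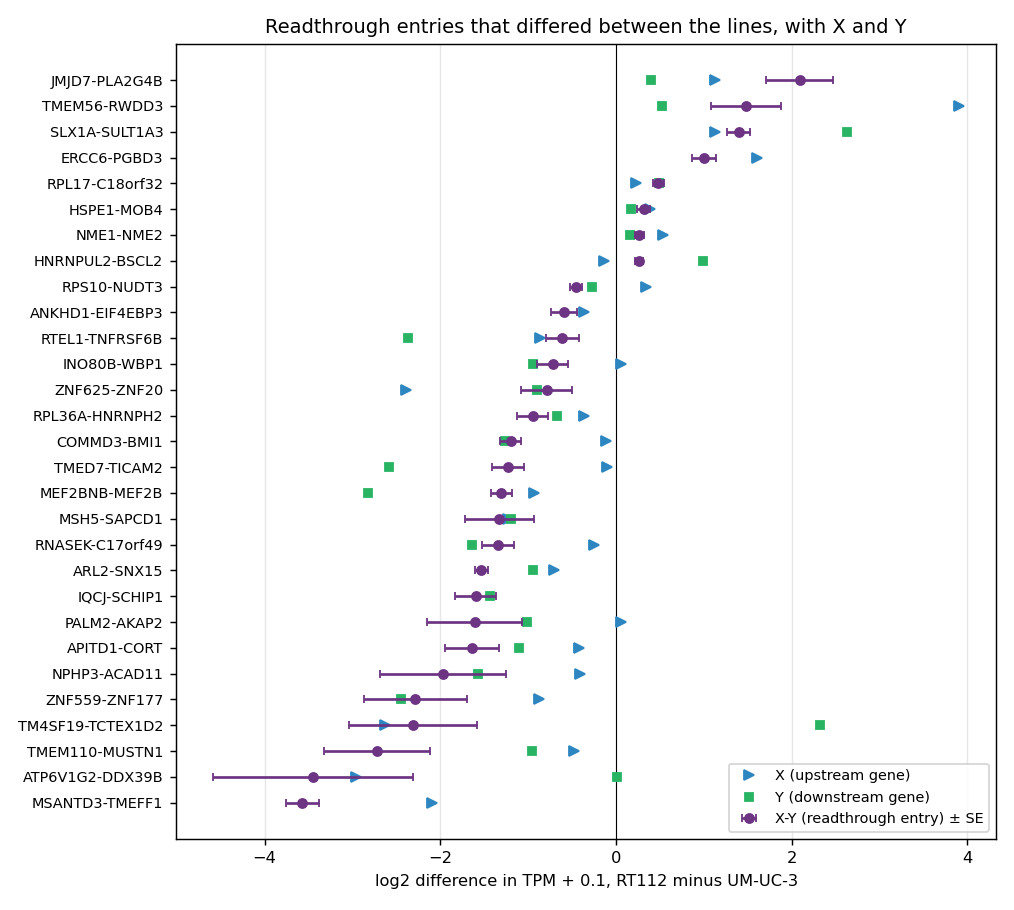
Difference between the lines as RT112 minus UM-UC-3 on the log2(TPM + 0.1) scale for 29 of the 31 entries that passed the test, with the readthrough entry (circles, ± SE), X (triangles) and Y (squares); the 2 entries listed at 0 throughout a line, and partners that never reached 1 TPM, are left out. Nearly every circle lies on the same side of 0 as at least 1 of its partners.

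Of the 168 partner genes tested, 60.7% passed between the lines, near the share of all genes. Over the 31 entries that passed, 30 had at least 1 partner that passed in the same direction, X in 24 and Y in 17, and both in 11. These counts include the entries whose direction the level filter fixed, PRR5-ARHGAP8 among the 11 and ARHGAP19-SLIT1 among the 24. The 1 entry of the 31 without such a partner was IQCJ-SCHIP1 (-1.60 ± 0.23 SE, adjusted p = 0.000318 by limma), where SCHIP1 had -1.44 ± 0.76 and IQCJ was near 0 TPM. Reads shared between X-Y and its partners can carry a difference from one entry to another, so these directions are not independent of each other. In 2 entries a partner passed in the opposite direction. RPS10-NUDT3 was lower in RT112 (-0.46 ± 0.07) as was NUDT3 (-0.27 ± 0.07), while RPS10 was higher (0.34 ± 0.05). TM4SF19-TCTEX1D2 was lower (-2.31 ± 0.73) as was TM4SF19 (-2.63 ± 0.22), while TCTEX1D2, now DYNLT2B, was higher (2.32 ± 0.23). TM4SF19-TCTEX1D2 no longer passed without RT112 siPAI-1 replicate 1, UM-UC-3 Scr replicate 2 or either UM-UC-3 siPAI-1 library, with an adjusted p of up to 0.33 by limma over its alternatives. Of the 57 entries that did not pass, 43 had a partner that did.

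In the share of the pair, 10 of the 82 pairs were higher in UM-UC-3 and 3 higher in RT112 without overlap of the libraries. Among them are PRR5-ARHGAP8 and ARHGAP19-SLIT1, whose direction the level filter fixed. Such shares exist only for pairs, so no value over all genes stands beside this count. JMJD7-PLA2G4B, which joins a protein hydroxylase gene to a phospholipase A2 gene, took 3.88% to 19.7% in UM-UC-3 and 21.6% to 31.3% in RT112. RNASEK-C17orf49 took 7.38% to 9.86% in UM-UC-3 and 3.45% to 5.96% in RT112, and TMED7-TICAM2 took 3.61% to 5.05% and 1.60% to 2.14%. POC1B-GALNT4, which pairs a centriole gene with a glycosyltransferase gene that lies within it, was at 1.13 to 1.80 TPM in UM-UC-3 and at 1.09 to 1.63 TPM in RT112, and its level did not pass the test (log2 difference -0.02 ± 0.24 SE). Its share was nevertheless 7.49% to 11.2% in UM-UC-3 against 6.12% to 6.95% in RT112, beside POC1B, which was higher in RT112 by 0.77 ± 0.13.

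The groups were small, and their counts stand beside the 60.6% of all genes that passed, 29.7% higher and 30.9% lower in RT112. By group, 4 of 7 entries with ribosomal or translation genes passed between the lines, 1 higher and 3 lower in RT112. Of 7 RNA-processing entries 4 passed, 1 higher and 3 lower, of 6 traffic entries 2 passed and both were lower, and of 3 zinc finger entries 2 passed and both were lower. Of the zinc finger entries, ZNF625-ZNF20 (adjusted p = 0.0424 by limma) passed under 8 of 16 alternatives only, with an adjusted p of up to 0.175, and was lost with the replicate block and without any 1 of 6 libraries, and ZNF559-ZNF177 was lost with the Scr libraries alone (adjusted p of up to 0.0517 by limma over its alternatives). Of 6 open reading frame entries 2 passed, 1 in each direction. Of the 4 entries in the immune group RTEL1-TNFRSF6B passed and was lower (-0.61 ± 0.19, adjusted p of up to 0.195 by limma over its alternatives). None of the 3 entries in the mitochondrial group passed. HSPE1-MOB4, which is outside that group by its name, passed and was higher in RT112 (log2 difference 0.32 ± 0.07 SE, adjusted p = 0.0049 by limma).

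The effect of siPAI-1 was tested within each line. No readthrough entry passed an adjusted p of 0.05 by limma, with 85 tested for UM-UC-3 (0 of 85) and 81 for RT112 (0 of 81), and the background was 0% of 18528 and 0% of 18437 genes. At an unadjusted p under 0.05 UM-UC-3 had 6 entries and RT112 had 8, which is 7.06% and 9.88% of those tested against 6.01% and 5.77% of all genes. Of those in RT112, ATP6V1G2-DDX39B, FPGT-TNNI3K, URGCP-MRPS24 and ZNF559-ZNF177 were listed at 0 throughout the Scr or the siPAI-1 group. They entered the test only through the other group, so the level filter fixed their direction and the 9.88% is not read as an excess. In UM-UC-3, FPGT-TNNI3K had a mean of 0.005 TPM under Scr and entered almost only through siPAI-1. The 7.06% is not read as an excess either.

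ATP6V1G2-DDX39B had the smallest p of the entries in UM-UC-3, and its listed level went in opposite directions in the 2 lines. ATP6V1G2 encodes a subunit of the proton pump V-ATPase and DDX39B an RNA helicase of mRNA export. Under Scr in UM-UC-3 the entry was at 2.56 and 3.66 TPM, and it was at 13.2 and 6.37 TPM with siPAI-1 (log2 difference 1.55 ± 0.40 SE, unadjusted p = 0.0117 and adjusted p = 0.791 by limma). In RT112 it was at 3.74 and 1.49 TPM under Scr and listed at 0 in both siPAI-1 libraries. It entered that fit only through Scr, so the level filter fixed its direction there and its p-value is not used. The test of the difference between the lines gave an unadjusted p of 0.000107 and an adjusted p of 0.365 by limma. DDX39B stayed between 399 and 452 TPM in all 8 libraries, and ATP6V1G2 was at most 2.04 TPM. At even coverage, the level in the RT112 Scr libraries corresponds to 5.71 and 2.20 reads across the joint, and that in the UM-UC-3 siPAI-1 libraries to 23.1 and 9.79.

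SYNJ2BP-COX16 was the only entry above 0 in every group with an unadjusted p under 0.05 in both lines, and its directions were opposite. In UM-UC-3 the 49.3 and 49.1 TPM of the Scr libraries stood against 59.7 and 54.9 TPM on siPAI-1, a log2 difference of 0.22 ± 0.07 SE. In RT112 the 58.2 and 60.0 TPM of the Scr libraries stood against 45.5 and 40.5 TPM, a log2 difference of -0.46 ± 0.08. Neither passed after adjustment (0.791 and 0.838 by limma), and the difference between the lines had an adjusted p of 0.379 by limma. The partner SYNJ2BP differed by 0.01 ± 0.11 (UM-UC-3) and by 0.18 ± 0.16 (RT112), while COX16 differed by -0.01 ± 0.09 and 0.21 ± 0.12 in the same order.

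FPGT-TNNI3K, which runs from a gene of fucose metabolism into a heart muscle kinase gene, was listed higher under siPAI-1 in both lines. The UM-UC-3 libraries had 0.01 and 0 TPM under Scr and 0.19 and 1.1 TPM under siPAI-1. The 0.01 TPM is the smallest step of the listed values, and in FPKM both Scr libraries were at 0. The entry was thus in the UM-UC-3 fit almost only through siPAI-1, and its p-value there is not used. The RT112 libraries had 0 and 0 TPM against 1.5 and 0.28 TPM. There the entry was above 0 only through siPAI-1, so the level filter fixed its direction and its p-value is not used. Its levels under siPAI-1 correspond to only 0.328 to 2.60 reads across the joint. FPGT lay between 4.19 and 12.6 TPM, and TNNI3K was at 0 in 7 libraries and at 0.2 TPM in 1.

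The other entries with an unadjusted p under 0.05 differed in 1 line. In UM-UC-3 these were NDUFC2-KCTD14, from a complex I subunit gene, at 4.58 and 4.07 TPM under Scr against 0 and 0.75 TPM under siPAI-1, NEDD8-MDP1, at 41.6 and 56.3 TPM against 29.6 and 35.9 TPM, and ARPC4-TTLL3, from a subunit gene of the actin-nucleating Arp2/3 complex, at 5.73 and 5.04 TPM against 1.91 and 3.84 TPM. Their upstream genes NDUFC2, NEDD8 and ARPC4 did not pass the test and differed by 0.02 ± 0.05, -0.01 ± 0.09 and -0.01 ± 0.06 on the log2 scale. In RT112 these were ISY1-RAB43, from a splicing factor gene to a Rab GTPase gene, at 5.83 and 4.5 TPM under Scr against 8.07 and 11.2 TPM under siPAI-1, RAB4B-EGLN2, which ends in an oxygen-sensing prolyl hydroxylase gene, at 2.09 and 1.84 TPM against 0.73 and 1.08 TPM, ST20-MTHFS, which ends in a folate enzyme gene, at 12.6 and 14.6 TPM against 9.05 and 3.45 TPM, and URGCP-MRPS24 and ZNF559-ZNF177, which are given with the switches. None of these passed after adjustment (adjusted p of at least 0.791 by limma).

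**Figure D5:**
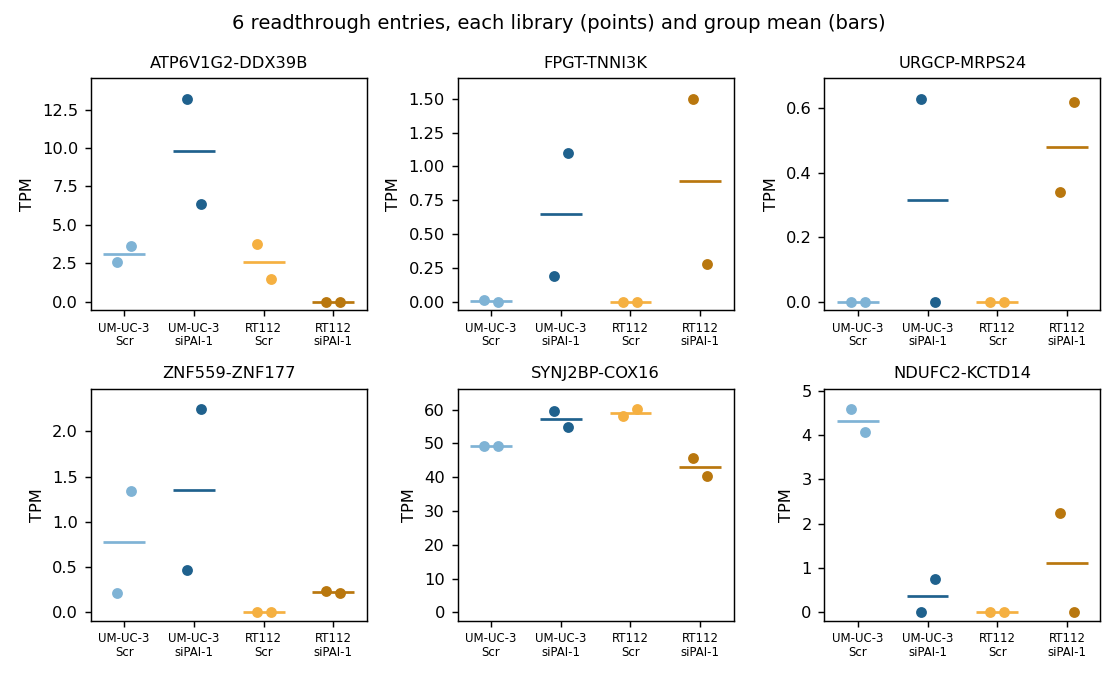
TPM of 6 readthrough entries in each library (points) with the mean of the 2 libraries of a group (bars), by cell line and siRNA. ATP6V1G2-DDX39B is at 0 in both RT112 siPAI-1 libraries and reaches 13.2 TPM in UM-UC-3 siPAI-1, and none of the 6 differences passed adjustment over all genes.

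For the difference of the siPAI-1 effect between the lines, 0 of 88 entries and 0% of 20274 genes passed an adjusted p of 0.05 by limma, and 6 entries (6.82%) had an unadjusted p under 0.05, against 6.76% of all genes. Besides ATP6V1G2-DDX39B and SYNJ2BP-COX16 these were ISY1-RAB43 (1.12 ± 0.32 SE, as the effect in RT112 minus that in UM-UC-3 on the log2 scale), NDUFC2-KCTD14 (unadjusted p = 0.027 by limma, with RT112 Scr listed at 0), IQCJ-SCHIP1 (-0.98 ± 0.34) and TVP23C-CDRT4 (-1.24 ± 0.43).

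A switch at 0 was counted where an entry was listed at 0 in every library of 1 group and above 0 in every library of the other. In UM-UC-3 no entry of 85 switched on or off with siPAI-1, and 0.885% of all genes went on and 1.07% went off, together 1.96%. In RT112, 4 of 81 entries (4.94%) switched, 3 on and 1 off, against 1.47% and 0.667% of all genes, together 2.14%. These were ATP6V1G2-DDX39B, which went off, and FPGT-TNNI3K, URGCP-MRPS24 (0.34 and 0.62 TPM) and ZNF559-ZNF177 (0.24 and 0.22 TPM), which went on. URGCP and the mitochondrial ribosomal protein gene MRPS24 stayed between 20.9 and 22.98 TPM and between 169 and 178 TPM in RT112. In UM-UC-3, URGCP-MRPS24 was above 0 in 1 siPAI-1 library only (0.63 TPM), and ZNF559-ZNF177, a zinc finger pair, was above 0 in all 4 libraries.

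Switches between the lines were 2 of 88 (2.27%), 1 in each direction, below the 4.59% of all genes, of which 2.35% were on and 2.24% off in RT112 alone. PRR5-ARHGAP8 was on in RT112, and ARHGAP19-SLIT1, which runs from the gene of a GTPase regulator into an axon guidance gene, was on in UM-UC-3 at 0.02 and 0.39 TPM under Scr and 0.65 and 0.28 TPM under siPAI-1. Splits at 0 within a group, where 1 library is at 0 and the other is not, were much more common. They took 12 to 16 entries in each group, which is 15.6% to 19.8% of the entries above 0 there, against 11.8% to 12.2% of all genes. Of the 59 entries with a mean of at least 1 TPM, 8 (13.6%) were split in at least 1 group, against 4.80% of all genes at that level. BLOC1S5-TXNDC5 showed such splits, at 1.45 and 0 TPM in UM-UC-3 with Scr and 2.68 and 0 TPM in RT112 with Scr.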

How the data were processed

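Groups came from the labels for cell line and siRNA. For each gene the deposited files hold TPM and FPKM with 2 decimals, as the authors made them. The submitters' processing notes name STAR 2.5.0, RSEM 1.2.25 and GRCh38, while the methods name featureCounts and DESeq2, so how reads shared by X-Y, X and Y were divided is not known for certain. The annotation version is not given in the sources used here. The 92 spike-in entries, all at 0, were left out.

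Entries X-Y were matched by symbol (MTHFS, on 2 rows, was summed). Two-sided tests were run in R 4.3.3 by limma 3.58.1, with a trend in eBayes, on log2(TPM + 0.1) of the deposited values. Genes at 0 in all libraries of a comparison were left out of it. The fit was tested on simulated data in which only well expressed genes were changed, so that test does not cover the low entries. Depth was searched between 20 and 45 M reads. Transcripts, joints and GRCh38 positions came from GENCODE 44. Gaps between X and Y were measured on its GRCh37 version. The members, gene groups and tests were chosen with earlier results of these data known.

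Named were the 10 entries with the highest mean, the 5 with the smallest p per direction and fit at an unadjusted p under 0.05, switches (up to 10 each), the 5 with the highest share, the 5 most often above both partners, and POC1B-GALNT4 and ATP6V1G2-DDX39B, with X and Y. The check of the siRNA's target is not reported here. Other entries, such as CORO7-PAM16, JMJD7-PLA2G4B and BLOC1S5-TXNDC5, were named as examples after their values were seen.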

Additional observations from a re-analysis of the deposited data

How the results depend on the processing

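The count of entries that differed between the lines was 25 to 32 under 16 alternatives, against 31 (31 with the replicate block, of which 30 shared, 25 with the 4 Scr libraries alone, 28 to 32 with a library left out), and none changed its sign. Under every alternative 19 of the 31 passed, and with each library left out 24 did. ATP6V1G2-DDX39B no longer passed between the lines with Scr alone, without the trend, or without any 1 of the 4 siPAI-1 libraries (adjusted p up to 0.594 over its alternatives). With siPAI-1, 0 entries passed in UM-UC-3, in RT112 and in the difference between the lines under all alternatives run, the replicate block (0) included. The replicate numbers were not taken to pair libraries, since with 2 pairs a line their replicate differences between siPAI-1 and Scr correlated with 0.044 (UM-UC-3) and -0.043 (RT112) over 12803 genes. A library left alone in its group was assumed to vary like the others.

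A switch needs every library of a group, so leaving 1 out can only keep or add switches, and over all genes the share rose to 5.69% to 6.07% as well. With a library left out, entries that went on with siPAI-1 in UM-UC-3 numbered 2 to 4 and those that went off 1 to 3, against 0 and 0. In RT112 they numbered 5 to 7 on and 1 to 4 off, against 3 and 1. As a share of the entries, switches made up 3.61% to 7.32% in UM-UC-3 and 8.97% to 12.3% in RT112. FPKM gave 1 entry on in UM-UC-3, FPGT-TNNI3K. With at most 0.05 TPM for off and at least 0.5 TPM for on, 0 went on in RT112 and 0 went off between the lines, while ATP6V1G2-DDX39B and PRR5-ARHGAP8 remained. The median share was 2.92% over the 61 pairs with a sum of at least 10 TPM, against 4.90%.

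Values below 1 TPM rest on few reads across a joint, and 29 of the 88 entries had a mean below it.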

Other observations

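Several X-Y names use symbols that have since changed. MEF2BNB is now BORCS8, ATP5J2 is ATP5MF, APITD1 is CENPS, TMEM110 is STIMATE, MINOS1 is MICOS10, TMEM56 is TLCD4, TCTEX1D2 is DYNLT2B, FAM188B is MINDY4 and C20orf24 is RAB5IF, while PRH1-PRR4 has no symbol of its own in GENCODE 44. Tagged entries with a transcript marked for nonsense-mediated decay numbered 49 of 80. Several entries stood above 0 in 1 library alone although a partner was well expressed: TMX2-CTNND1 was at 0.53 TPM in 1 UM-UC-3 Scr library and TRIM39-RPP21 at 0.33 TPM in 1 UM-UC-3 siPAI-1 library. KLRC4-KLRK1, from a pair of receptor genes of natural killer cells, was above 0 in 3 libraries at 0.31 TPM or less, beside PTPRC at 0.03 TPM or less.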
